A study of Homo sapiens with 17 samples.

Results

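The 10 genes described here encode the protein kinase mTOR, its partner subunits in the mTORC1 and mTORC2 complexes, and the upstream TSC and RHEB switch. They were listed by name, as members of these complexes and of the switch: *MTOR*, *RPTOR*, *RICTOR*, *MLST8*, *MAPKAP1*, *AKT1S1*, *DEPTOR*, *TSC1*, *TSC2* and *RHEB*. Each symbol matched 1 Ensembl identifier among the 60664 genes of the deposited table, and all 10 passed the minimum mean of 10 normalized counts that left 15599 genes for testing. RNA-Seq was done on SF8628 cells, an established line of diffuse midline glioma that carries the H3.3 K27M mutation, so all groups share that line and that mutation. The 4 groups were SF8628 cells with the vehicle DMSO for 24 hours, with 1 μM AZD5153 for 24 hours, with DMSO for 48 hours and with 1 μM AZD5153 for 48 hours, with 3 libraries in each. AZD5153 inhibits the BET bromodomain proteins, which bind acetylated histones at active genes. The question was how the mRNA of this pathway's core differed with BET inhibition at each time. The CUT&RUN samples of the series were not analysed here.

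mTOR is a kinase that couples growth to nutrients and growth factors. In mTORC1 it works with RAPTOR (*RPTOR*) and mLST8 to promote translation and restrain autophagy, and PRAS40 (*AKT1S1*) and DEPTOR act as inhibitors. In mTORC2 it works with RICTOR, mSIN1 (*MAPKAP1*) and mLST8 to phosphorylate AKT and related kinases. The small GTPase RHEB, when bound to GTP, activates mTORC1 at the lysosome, and the complex of hamartin (*TSC1*) and tuberin (*TSC2*) switches RHEB off. Loss of *TSC1* or *TSC2* in the germ line underlies tuberous sclerosis, and PI3K, AKT and mTOR signalling is often active in gliomas. These are facts about the proteins, and only mRNA was measured here.

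Promoter windows of 250 bases before the start site were found in the RefSeq table (GRCh38.p14) for 7 of the 10 genes: *MTOR*, *RPTOR*, *RICTOR*, *MAPKAP1*, *TSC1*, *TSC2*, which had a pair of windows, and *RHEB*. The windows of *MTOR*, *MAPKAP1* and *RPTOR* are printed because these genes had, in turn, the clearest rise with AZD5153 at both times, opposite changes at the 2 times, and no call at either time, and because most of each window lies outside any annotated exon. Each is read 5′ to 3′ on the strand of the gene and stops before the first annotated exon, and capitals mark the motifs found. *MTOR* lies on the minus strand at chr1:11262557-11262801, *MAPKAP1* on the minus strand at chr9:125707235-125707458, and *RPTOR* on the plus strand at chr17:80544588-80544818.
MTOR: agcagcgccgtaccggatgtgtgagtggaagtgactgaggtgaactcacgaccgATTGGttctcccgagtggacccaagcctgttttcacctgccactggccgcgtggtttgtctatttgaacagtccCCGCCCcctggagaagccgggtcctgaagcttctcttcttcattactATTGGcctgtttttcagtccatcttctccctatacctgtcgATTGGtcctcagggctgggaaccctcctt
MAPKAP1: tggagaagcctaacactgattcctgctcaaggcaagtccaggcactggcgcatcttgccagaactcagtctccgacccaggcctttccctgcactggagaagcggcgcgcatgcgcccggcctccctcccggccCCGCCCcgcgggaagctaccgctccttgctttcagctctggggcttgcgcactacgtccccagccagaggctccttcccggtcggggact
RPTOR: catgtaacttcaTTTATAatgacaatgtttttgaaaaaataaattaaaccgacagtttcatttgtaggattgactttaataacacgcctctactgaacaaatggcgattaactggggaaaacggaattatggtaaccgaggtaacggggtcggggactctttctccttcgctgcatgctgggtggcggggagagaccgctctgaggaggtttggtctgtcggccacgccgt

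Both strands of each window were searched for the CCAAT box (CCAAT), the GC box (GGGCGG), the TATA box (TATAAA) and the E-box (CACGTG), and overlapping matches were counted separately. The *MTOR* window held 3 CCAAT boxes, all on the reverse strand, at 196, 75 and 34 bases before the start, and 1 GC box at 122 bases. A CCAAT box was found in 32.0% of 35116 promoter windows of the same length, and at least 3 were found in 2.93%. *RHEB* held 2 CCAAT boxes and *RICTOR* 1, and each of these held 4 GC boxes, a motif that 42.6% of all windows held at least once and 13.9% at least 3 times. *TSC1* held 2 GC boxes, *MAPKAP1* 1, and each *TSC2* window 1. The *RPTOR* window held 1 TATA box, 238 bases before the start, against 10.7% of all windows with a match. An E-box was found in 1 of the *TSC2* windows, against 6.34% of all windows. In the *RICTOR*, *RHEB* and *TSC1* windows an annotated exon was reached after 0, 25 and 32 bases. In the *TSC2* windows it was reached after 0 and 15 bases, so motifs in these windows may lie within exons. Genes that rose and genes that fell with AZD5153 both held GC boxes, and a match is only a run of letters.

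In GENCODE 44 on GRCh38, *MTOR* (ENSG00000198793) spans chr1:11106535-11262556, *RPTOR* (ENSG00000141564) chr17:80544819-80966371, *RICTOR* (ENSG00000164327) chr5:38937920-39074402 and *MLST8* (ENSG00000167965) chr16:2204248-2209453. *MAPKAP1* (ENSG00000119487) spans chr9:125437393-125707234, *AKT1S1* (ENSG00000204673) chr19:49869033-49878459 and *DEPTOR* (ENSG00000155792) chr8:119873717-120050918. *TSC1* (ENSG00000165699) spans chr9:132891348-132946874, *TSC2* (ENSG00000103197) chr16:2047967-2089491 and *RHEB* (ENSG00000106615) chr7:151466012-151520120. *TSC2* and *MLST8* thus lie on the same arm of chromosome 16, and *MAPKAP1* and *TSC1* on chromosome 9. Values are whole-gene values, over all exons. *RICTOR* shares 229 exon bases with *OSMR* and *TSC2* shares 784 with *PKD1*, both on the opposite strand. The strand setting of the counting is not given in the sources used here, so reads in those bases cannot be assigned with certainty.

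Each library had 15759148 to 27335220 reads on genes, with a median of 20737337. The first DMSO library at 24 hours stood apart from the others of its group on the second principal component (44.6, against 17.4 and 16.6), and in it the difference from its replicates fell with the GC content of the transcript (Spearman correlation of -0.54 across 15577 genes, which are not independent replicates). The same correlation was 0.53 in the third DMSO library at 24 hours, -0.34 in the third AZD5153 library at 24 hours and between -0.18 and 0.27 in the other 9, each library being set against the others of its group, so these values are not independent within a group. Of the 10 genes, the 4 with a transcript GC content of at least 60% were low in that library, by -0.59 (*AKT1S1*), -0.39 (*MLST8*), -0.34 (*RPTOR*) and -0.27 (*TSC2*) on the log2 scale against its replicates. *RICTOR*, at 36.5% GC, was high by 0.25, *RHEB* was high by 0.19, and *MTOR* differed by 0.0039. Where leaving out this library changed a call, or moved a called value by more than 1.5 times, the value without it is given. The defining glioma markers were not all present: *VIM*, *CD44* and *NES* had group means from 544 to 22869 normalized counts, *OLIG2* was listed at 0 in every library, and *PDGFRA* had group means of 1.54 to 4.42 normalized counts. In bulk RNA, fewer cells with a transcript and less of it per cell cannot be told apart. The labels do not say that the replicates were separate cultures, so p-values measure the spread between these libraries, which may be technical.

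Levels were compared between genes per kilobase of the canonical transcript. *RHEB* was highest in every group, from 2354 ± 178 normalized counts per kb in DMSO at 24 hours to 1596 ± 20.4 with AZD5153 at 48 hours (mean ± SD, n = 3). *AKT1S1*, at 1229 to 1383 per kb, and *MAPKAP1*, at 993 to 1166, followed in each group. *DEPTOR* was lowest throughout, at 12.1 to 28.6 per kb, and rested on only 27 to 90 reads a library. The switch RHEB was thus at the top of the range and the inhibitor DEPTOR at the bottom. The complex-defining subunit of mTORC1 was above that of mTORC2: *RPTOR* stood at 356 to 499.7 per kb and *RICTOR* at 99.3 to 128.

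Most ranks did not move with treatment, with 2 exceptions. *MTOR* rose from 259 ± 8.92 to 422 ± 5.92 per kb at 24 hours and from 225 ± 5.04 to 465 ± 5.24 at 48 hours. It was below *RPTOR* in the first 3 groups and above it in AZD5153 at 48 hours, where *RPTOR* stood at 356 ± 13.5. *TSC2* was below *MLST8* in both DMSO groups, where their libraries overlapped, and above it in both AZD5153 groups, where they did not. In DMSO at 24 hours *AKT1S1* and *MAPKAP1* also overlapped, and every other pair of neighbours in the order was separated in its group. With the length of all exons of a gene in place of the canonical transcript, *RHEB* stayed first and *DEPTOR* last in each group, while *MAPKAP1* stood above *AKT1S1*. On that scale the mean of *TSC2* was below that of *MLST8* in the AZD5153 groups too (275 against 292 per kb at 24 hours and 309.7 against 315 at 48 hours), so the crossing of these genes depended on the length used.

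**Figure D1:**
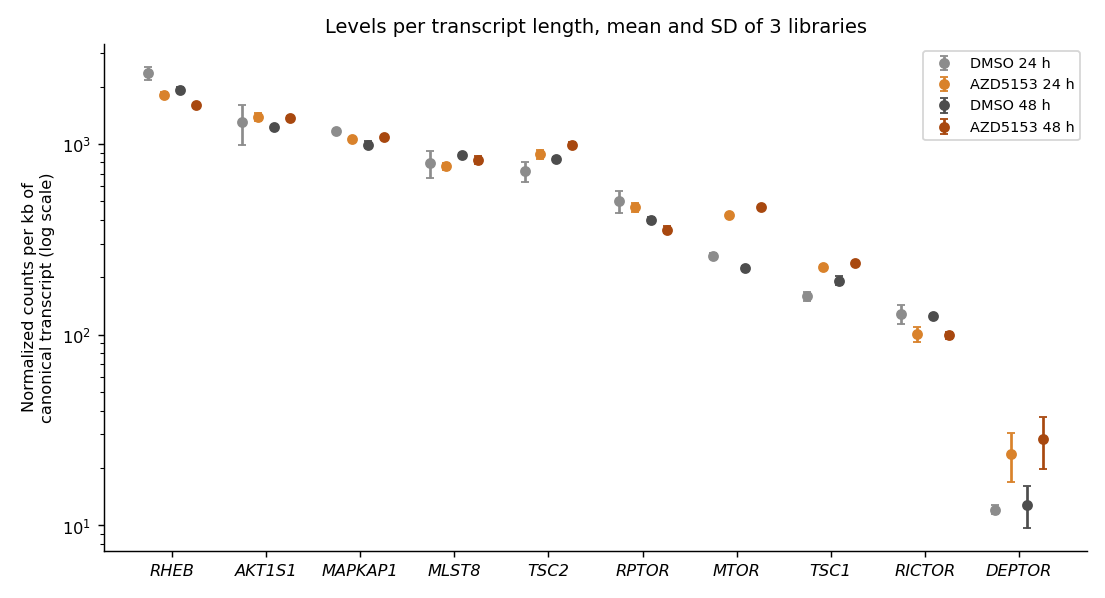
Normalized counts per kilobase of canonical transcript (log axis) for the 10 genes, ordered by their level in DMSO at 24 hours, with points for the mean and bars for the SD of 3 libraries in each of the 4 groups. *RHEB* is highest and *DEPTOR* lowest in each group, and the *MTOR* points of the AZD5153 groups (422 and 465 per kb) lie above those of DMSO (259 and 225).

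Fold changes below are log2 differences of normalized counts plus 1, tested with limma and adjusted over the 15599 genes, and a gene is called where the adjusted p is under 0.05. At 24 hours, 4 of the 10 genes were called higher with AZD5153 (*MTOR*, *DEPTOR*, *TSC1* and *TSC2*) and 3 lower (*RICTOR*, *MAPKAP1* and *RHEB*). Of all tested genes, 33.9% were called higher and 34.6% lower at 24 hours, so the share called among the 10 was near that of all genes (68.5% in either direction). At 48 hours, 5 were called higher, the same 4 and *MAPKAP1*, and 2 lower, *RICTOR* and *RHEB*, against 33.1% and 33.9% of all genes. The median log2 fold change of the 10 genes was 0.038 at 24 hours and 0.15 at 48 hours, against 0.00037 and 0.0011 for all tested genes. At 24 hours the libraries of the 2 treatments did not overlap for those 7 genes (against 34% of all tested genes with all AZD5153 libraries higher and 34.8% with all lower). At 48 hours they did not overlap for any of the 10, with 6 higher and 4 lower, against 37.5% and 37.2%. Without the first DMSO library at 24 hours, 4 genes were called higher and 5 lower by limma at 24 hours, and 6 higher and 3 lower at 48 hours, while of all 15599 genes 5309 were then called higher and 5494 lower at 24 hours and 5556 and 5608 at 48 hours. Averaged over both times, 7 were called, against 75.8% of all tested genes. The 10 genes were thus called in both directions, a split that all tested genes also showed. Among the 10, the kinase and both TSC genes were called higher and *RHEB* lower at both times. The *TSC2* call at 48 hours depended on the scaling.

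**Figure D2:**
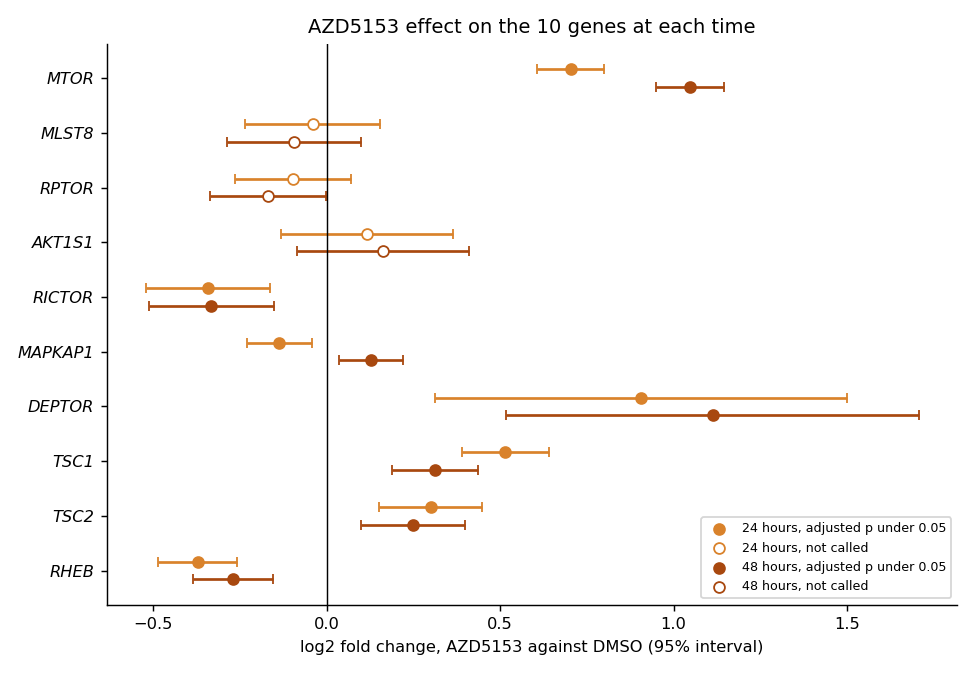
Log2 fold change of AZD5153 against DMSO for each gene at 24 hours (light) and 48 hours (dark), with 95% intervals from limma, filled where the adjusted p was under 0.05. *MTOR* rose by 0.70 and 1.05, *MAPKAP1* lies on opposite sides of 0 at the 2 times, and *MLST8*, *RPTOR* and *AKT1S1* are open at both.

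*MTOR*, the catalytic subunit of both complexes, had 2266, 2183 and 2338 normalized counts in the DMSO libraries at 24 hours and 3662, 3742 and 3646 in the AZD5153 libraries. At 48 hours it had 1999.6, 1971 and 1913 in DMSO and 4081, 4082 and 4003 with AZD5153. The groups were far apart at both times, and every AZD5153 library was above every DMSO library. Its log2 fold change was 0.70 (SE 0.0457, adjusted p = 1.35e-09 by limma) at 24 hours and 1.05 (same SE, adjusted p = 1.28e-11) at 48 hours. Over all alternatives it stayed between 0.58 and 0.73 at 24 hours and between 0.88 and 1.07 at 48 hours, and it was called in each. Of all tested genes, 26% were called higher at both times.

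*MLST8*, the small subunit that binds the kinase domain in both complexes, did not follow *MTOR*. It had 1094, 1344 and 1526 normalized counts in DMSO and 1229, 1325 and 1267 with AZD5153 at 24 hours, and the groups overlapped. The values at 48 hours were 1417, 1489 and 1484 in DMSO and 1412, 1407 and 1295 with AZD5153, so that the groups were narrowly separated. The log2 fold changes were -0.040 (95% interval -0.23 to 0.15) and -0.094 (-0.29 to 0.10), with adjusted p-values of 0.707 and 0.376 by limma. Without the first DMSO library at 24 hours the value at 24 hours was -0.17 and that over both times -0.13, and both were called (adjusted p = 0.0228 and 0.00782 by limma; with all libraries the latter was -0.067, adjusted p = 0.353). Without the third, the value at 24 hours was 0.070 (adjusted p = 0.45 by limma). With libraries scaled to equal totals, *MLST8* was called lower at 48 hours (-0.27, adjusted p = 0.016 by limma) and over both times (-0.21, adjusted p = 0.00613). The median of all genes at 48 hours was then -0.17, and *MLST8* stood at -0.097 relative to it.

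*RPTOR*, the scaffold of mTORC1 that recruits its substrates, had 2897, 3637 and 3718 normalized counts in DMSO and 3128, 3371 and 3033 with AZD5153 at 24 hours. The low value belongs to the first DMSO library, and the groups overlapped. After 48 hours the values were 2845, 2688 and 2677 in DMSO and 2516, 2334 and 2455 with AZD5153, and all AZD5153 libraries were lower. The log2 fold changes were -0.10 (SE 0.0786, adjusted p = 0.283 by limma) and -0.17 (same SE, adjusted p = 0.0697). Without the first DMSO library at 24 hours they were -0.21 and -0.17, and both were called (adjusted p = 0.000908 and 0.00249 by limma). Without the third the value at 48 hours was also called (adjusted p = 0.0424 by limma). With equal totals *RPTOR* was called lower at both times (-0.22 and -0.34, adjusted p = 0.0177 and 0.000927 by limma), at -0.099 and -0.17 relative to the median of all genes, and with quantile normalization at 48 hours (-0.29, adjusted p = 0.00448). The effect averaged over both times was -0.13 and was called (adjusted p = 0.04 by limma), against 38% of all tested genes called lower there, and leaving out 1 of 9 of the 12 libraries ended the call (adjusted p from 0.0514 to 0.106), the exceptions being the first DMSO and the second AZD5153 library at 24 hours and the first AZD5153 library at 48 hours.

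*AKT1S1*, which encodes the mTORC1 inhibitor and AKT substrate PRAS40, had 1725, 2392 and 2811 normalized counts in DMSO and 2538, 2503 and 2326 with AZD5153 at 24 hours. The spread within DMSO at 24 hours was the widest of the 10 genes relative to the mean (a coefficient of variation of 23.7%), and the AZD5153 libraries lay inside it. The 48-hour values were 2195, 2187 and 2165 in DMSO and 2470.2, 2484 and 2376 with AZD5153, which did not overlap. The log2 fold changes were 0.12 (SE 0.117, adjusted p = 0.388 by limma) and 0.16 (same SE, adjusted p = 0.23). Over the limma, edgeR and DESeq2 alternatives the value at 48 hours ran from -0.0089 to 0.19 (adjusted p from 0.000976 to 0.949). Whether *AKT1S1* was called at 48 hours thus depended on the alternative. Without the first DMSO library at 24 hours the values were -0.080 (adjusted p = 0.234 by limma) and 0.16 (adjusted p = 0.00786 by limma), and without the third the value at 24 hours was 0.27 (adjusted p = 0.0168 by limma) and that over both times 0.22 (adjusted p = 0.00488), against 0.14 (adjusted p = 0.136) with all libraries.

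*RICTOR*, the scaffold of mTORC2, had 1364, 1222 and 1079.6 normalized counts in DMSO and 886, 939.9 and 1059 with AZD5153 at 24 hours. The libraries at 48 hours had 1209, 1207 and 1159 in DMSO and 995, 921 and 923 with AZD5153. All AZD5153 libraries were below all DMSO libraries at both times, with only a narrow gap at 24 hours. On the log2 scale *RICTOR* changed by -0.34 (SE 0.0844, adjusted p = 0.00199 by limma) at 24 hours and -0.33 (same SE, adjusted p = 0.00252) at 48 hours. The gene was called lower at both times in every alternative, from -0.47 to -0.26 at 24 hours, and 27.1% of all tested genes were called lower at both times. The neighbour *OSMR*, which shares exon bases with it, changed by 0.040 (adjusted p = 0.554 by limma) and -0.43 (adjusted p = 7.32e-06).

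*MAPKAP1*, which encodes the mTORC2 subunit mSIN1, had 3884, 3945 and 3959 normalized counts in DMSO and 3542, 3584 and 3596 with AZD5153 at 24 hours. In the 48-hour libraries it had 3362, 3214 and 3465 in DMSO and 3702, 3664 and 3598 with AZD5153. The AZD5153 libraries lay close together across both times, while the DMSO libraries were above them at 24 hours and below them at 48 hours. The change was -0.14 (SE 0.0438, adjusted p = 0.0116 by limma) at 24 hours and 0.13 (same SE, adjusted p = 0.0174) at 48 hours, and 0.974% of all tested genes were called lower at 24 hours and higher at 48 hours. Over all alternatives the value at 24 hours ran from -0.26 to -0.12 and was called in each. The rise at 48 hours was small and depended on the scaling: it was -0.044 with libraries scaled to equal totals and -0.028 with quantile normalization (adjusted p = 0.386 and 0.581 by limma). Equal totals moved the median of all genes by -0.12 at 24 hours and -0.17 at 48 hours, and relative to that median *MAPKAP1* stood at 0.12 at 48 hours. With quantile normalization the median of all genes at 48 hours was 0.087, and *MAPKAP1* stood at -0.12 relative to it. Leaving out the second DMSO library at 48 hours (0.10, adjusted p = 0.0897 by limma) or the first AZD5153 library at 48 hours (0.12, adjusted p = 0.0598) also ended the call. Over both times *MAPKAP1* stood at -0.0046 (adjusted p = 0.898 by limma), and it was called lower with equal totals (-0.15, adjusted p = 0.000303) and quantile normalization (-0.10, adjusted p = 0.00647).

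*DEPTOR*, which binds mTOR and inhibits it in both complexes, was the sparsest of the genes. It had 30.4, 29.9 and 33.0 normalized counts in DMSO and 69.7, 41.0 and 72.2 with AZD5153 at 24 hours. By 48 hours it had 33.3, 24.8 and 41.0 in DMSO and 68.4, 97.8 and 53.9 with AZD5153. The AZD5153 libraries were above the DMSO libraries at both times, but scattered widely. The log2 fold change was 0.91 (SE 0.279, 95% interval 0.31 to 1.50, adjusted p = 0.00924 by limma) at 24 hours and 1.11 (95% interval 0.52 to 1.71, adjusted p = 0.00234) at 48 hours. It was called at both times in every alternative that tested it, with values from 0.76 to 1.17 and from 0.89 to 1.48. With its mean of 49.6 normalized counts, *DEPTOR* was not tested in the alternative with a minimum mean of 100.

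*TSC1*, whose product hamartin stabilizes tuberin, had 1379.6, 1438 and 1281 normalized counts in DMSO and 1940.1, 1915 and 1996 with AZD5153 at 24 hours. In libraries of 48 hours it had 1656, 1556 and 1745 in DMSO and 2065, 2058 and 2026 with AZD5153. The groups did not overlap at either time, and the DMSO mean was higher at 48 than at 24 hours. *TSC1* rose by 0.51 (SE 0.0586, adjusted p = 1.08e-06 by limma) at 24 hours and 0.31 (same SE, adjusted p = 2.0e-04) at 48 hours. The gene was called higher at both times in every alternative, from 0.39 to 0.55 and from 0.14 to 0.35.

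*TSC2*, whose product carries the domain that switches RHEB off, had 4044, 4617 and 5166 normalized counts in DMSO and 5749, 5899 and 5306 with AZD5153 at 24 hours. At 48 hours it had 5461, 5346 and 5248 in DMSO and 6545, 6376 and 6152 with AZD5153. Each AZD5153 library was above each DMSO library of its time, although the third DMSO and the third AZD5153 library at 24 hours were close. The log2 fold change was 0.30 (SE 0.0702, adjusted p = 0.00135 by limma) at 24 hours and 0.25 (same SE, adjusted p = 0.0054) at 48 hours. The call at 48 hours was lost with equal totals (0.077, adjusted p = 0.338 by limma) and with quantile normalization (0.089, adjusted p = 0.262). The call at 24 hours was kept in every alternative, with values from 0.18 to 0.39. Relative to the median of all genes, *TSC2* at 48 hours stood at 0.25 with equal totals, as without them, and at 0.0014 with quantile normalization. *PKD1*, which overlaps *TSC2* on the opposite strand, rose by 1.20 and 1.18, and the part of shared reads in the *TSC2* values was not tested.

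*RHEB*, the GTPase that activates mTORC1, had 5237, 4626 and 4586 normalized counts in DMSO and 3827, 3711 and 3609.5 with AZD5153 at 24 hours. For 48 hours the values were 3896, 3847 and 4069.6 in DMSO and 3298, 3278 and 3218 with AZD5153. It was lower in every AZD5153 library than in every DMSO library of its time. The change was -0.37 (SE 0.0538, adjusted p = 1.5e-05 by limma) at 24 hours and -0.27 (same SE, adjusted p = 0.000344) at 48 hours, and it was called in every alternative, from -0.49 to -0.31 and from -0.44 to -0.24. The GTPase and its 2 inhibitors thus moved in opposite directions, although the *TSC2* call at 48 hours depended on the scaling.

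**Figure D3:**
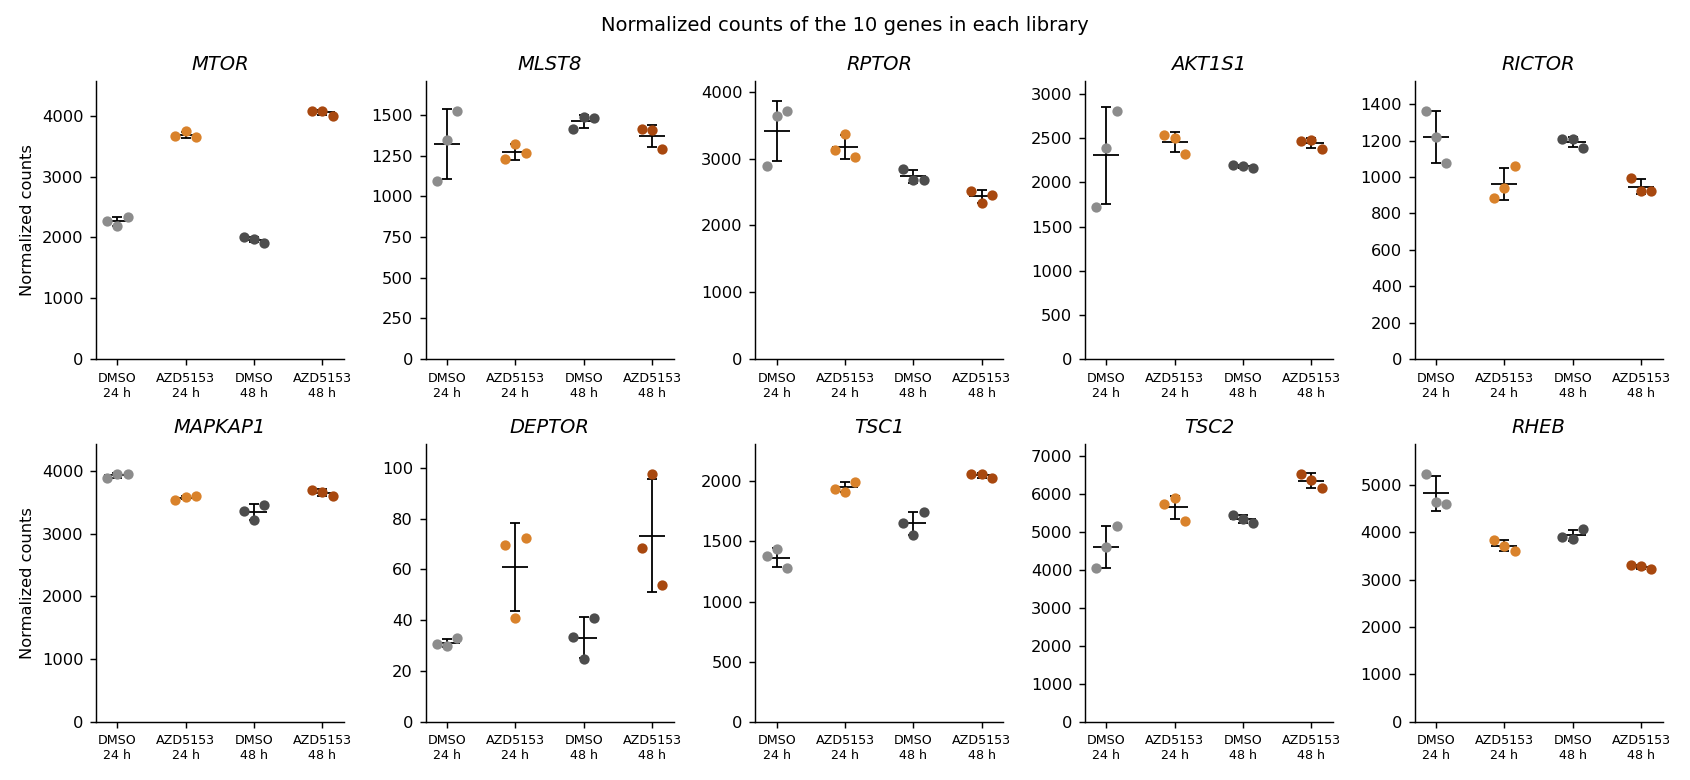
Normalized counts (axes from 0) of each of the 10 genes in the 12 libraries, with points for libraries, in replicate order within a group, and bars for the mean and SD of 3. *MTOR* shows 2 separated levels at each time, *DEPTOR* a wide scatter at low counts, and the first DMSO library at 24 hours is low for *AKT1S1* (1725), *RPTOR* (2897) and *MLST8* (1094).

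The levels also differed between 24 and 48 hours in DMSO alone, where no drug was present, for 6 of the 10 genes against 35.7% of all tested genes. In DMSO, 4 genes were called lower at 48 hours, against 19.3% of all tested genes: *MTOR* by -0.21 (adjusted p = 0.00243 by limma), *RPTOR* by -0.31 (0.00572), *MAPKAP1* by -0.23 (0.000708) and *RHEB* by -0.29 (0.000653). All 4 stayed called in every alternative. Their values there ran from -0.23 to -0.13 for *MTOR*, -0.43 to -0.23 for *RPTOR*, -0.26 to -0.14 for *MAPKAP1* and -0.32 to -0.19 for *RHEB*. *TSC1* was called higher by 0.27 (adjusted p = 0.00183 by limma) and *TSC2* by 0.22 (adjusted p = 0.0216), against 16.4% of all tested genes. The *TSC2* difference was lost without the first DMSO library at 48 hours (0.21, adjusted p = 0.0743 by limma) or without the second (0.22, adjusted p = 0.0577). Without the first DMSO library at 24 hours it was 0.13 and was still called (adjusted p = 0.044 by limma). Without that library *AKT1S1* was also called lower, at -0.25 (adjusted p = 0.00152 by limma) against -0.053 with it, and without the third DMSO library at 24 hours *MLST8* was called higher, at 0.27 (adjusted p = 0.013 by limma) against 0.16. So RHEB, mTOR and RAPTOR transcripts were lower, and both TSC transcripts higher, in DMSO at 48 hours than at 24 hours.

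With AZD5153, 3 of the 10 genes were called between the times, against 29.7% of all tested genes. *RPTOR* was lower at 48 than at 24 hours by -0.38 (adjusted p = 0.00169 by limma) and *RHEB* by -0.19 (adjusted p = 0.0159), against 13.8% of all tested genes called lower. *RPTOR* was lower at 48 hours in both treatments. The *RHEB* call was lost without the first AZD5153 library at 24 hours (-0.16, adjusted p = 0.0699 by limma), without the third at 48 hours (-0.18, adjusted p = 0.0588) and with scaling on 7 stably expressed genes (-0.10, adjusted p = 0.239). *MTOR* was higher by 0.14 (adjusted p = 0.0316 by limma), against 15.8% of all tested genes called higher, but leaving out any 1 AZD5153 library ended that call (0.13 to 0.15, adjusted p from 0.0542 to 0.0905). *TSC2* differed by 0.17 (adjusted p = 0.0801 by limma), and the same value was called without the first DMSO library at 24 hours (adjusted p = 0.00369), which enters only the estimate of the spread, or without the third (adjusted p = 0.0223).

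The test of whether the AZD5153 effect differed between the times called 2 of the 10 genes, both higher and none lower, against 14.4% and 10.1% of all tested genes (24.5% in either direction). The *MTOR* effect was larger at 48 hours by 0.34 (SE 0.0647, adjusted p = 0.00125 by limma), and the DMSO libraries were lower and the AZD5153 libraries higher at 48 hours, as given above. It was called in every alternative, with values from 0.25 to 0.42. The *MAPKAP1* effect was larger by 0.26 (SE 0.0619, adjusted p = 0.00591 by limma), and here the DMSO libraries moved while AZD5153 at 48 and 24 hours differed by 0.032 (adjusted p = 0.627). With quantile normalization the *MAPKAP1* value was 0.15 and was not called (adjusted p = 0.0966 by limma). *TSC1* differed by -0.20 (adjusted p = 0.0883 by limma), and the other 7 genes had adjusted p-values of 0.357 or more. *TSC1* was called lower with equal totals (-0.25, adjusted p = 0.0392 by limma) and with quantile normalization (-0.30, adjusted p = 0.0182). Without the first DMSO library at 24 hours *AKT1S1* was called as well, at 0.24 (adjusted p = 0.0223 by limma) against 0.046 with it, which made 3 genes called higher. These comparisons share libraries with those of each time and are not separate evidence.

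Ratios of 2 genes within a library hardly depend on how libraries are scaled, and 8 such ratios were compared between treatments by an exact two-sided permutation test within each time, with 400 arrangements, a smallest possible p of 0.005 and adjustment over the 8 ratios. The counts are not divided by length, so only differences between libraries can be read from them. The ratios use the gene values compared above and are not separate evidence. RHEB to MTOR was 2.31, 2.12 and 1.96 in DMSO and 1.05, 0.992 and 0.990 with AZD5153 at 24 hours. At 48 hours it was 1.95, 1.95 and 2.13 in DMSO and 0.808, 0.803 and 0.804 with AZD5153. The ratio fell in all 6 AZD5153 libraries, to 0.436 of its DMSO value (adjusted p = 0.0133, exact permutation test). Since *MTOR* was higher and *RHEB* lower in every AZD5153 library than in DMSO of the same time, this separation was fixed in advance.

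TSC2 to RHEB, the inhibitor against its target, was 0.772, 0.998 and 1.13 in DMSO and 1.50, 1.59 and 1.47 with AZD5153 at 24 hours. At 48 hours it was 1.40, 1.39 and 1.29 in DMSO and 1.98, 1.94 and 1.91 with AZD5153. It was higher in each AZD5153 library than in each DMSO library of its time, by 1.51-fold over both times (adjusted p = 0.0133, exact permutation test). That separation likewise followed from the *TSC2* and *RHEB* values given above. MLST8 to MTOR was lower with AZD5153, at 0.323 to 0.354 in the 6 AZD5153 libraries and 0.483 to 0.775 in the 6 DMSO libraries, a fold of 0.52 (adjusted p = 0.0133, exact permutation test). These are changes in mRNA proportions and say nothing of the makeup of the complexes.

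AKT1S1 to RPTOR, the inhibitor against the mTORC1 scaffold, rose by 1.21-fold and MAPKAP1 to RICTOR, within mTORC2, by 1.26-fold (adjusted p = 0.016 each, exact permutation test). At 24 hours the libraries overlapped for both of these ratios, with AKT1S1 to RPTOR at 0.595 to 0.756 in DMSO and 0.743 to 0.811 with AZD5153. At 48 hours they did not, with MAPKAP1 to RICTOR at 2.66 to 2.99 in DMSO and 3.72 to 3.98 with AZD5153. For RPTOR to RICTOR (1.15-fold, adjusted p = 0.0933), TSC1 to TSC2 (1.10-fold, adjusted p = 0.103) and DEPTOR to MTOR (1.10-fold, adjusted p = 0.495) the exact permutation test did not pass the threshold. Leaving out the first DMSO library at 24 hours or the third at 48 hours brought TSC1 to TSC2 to an adjusted p of 0.04 in the exact permutation test (log2 differences of 0.19 and 0.17), and leaving out the third at 24 hours brought RPTOR to RICTOR to 0.02 (0.28).

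**Figure D4:**
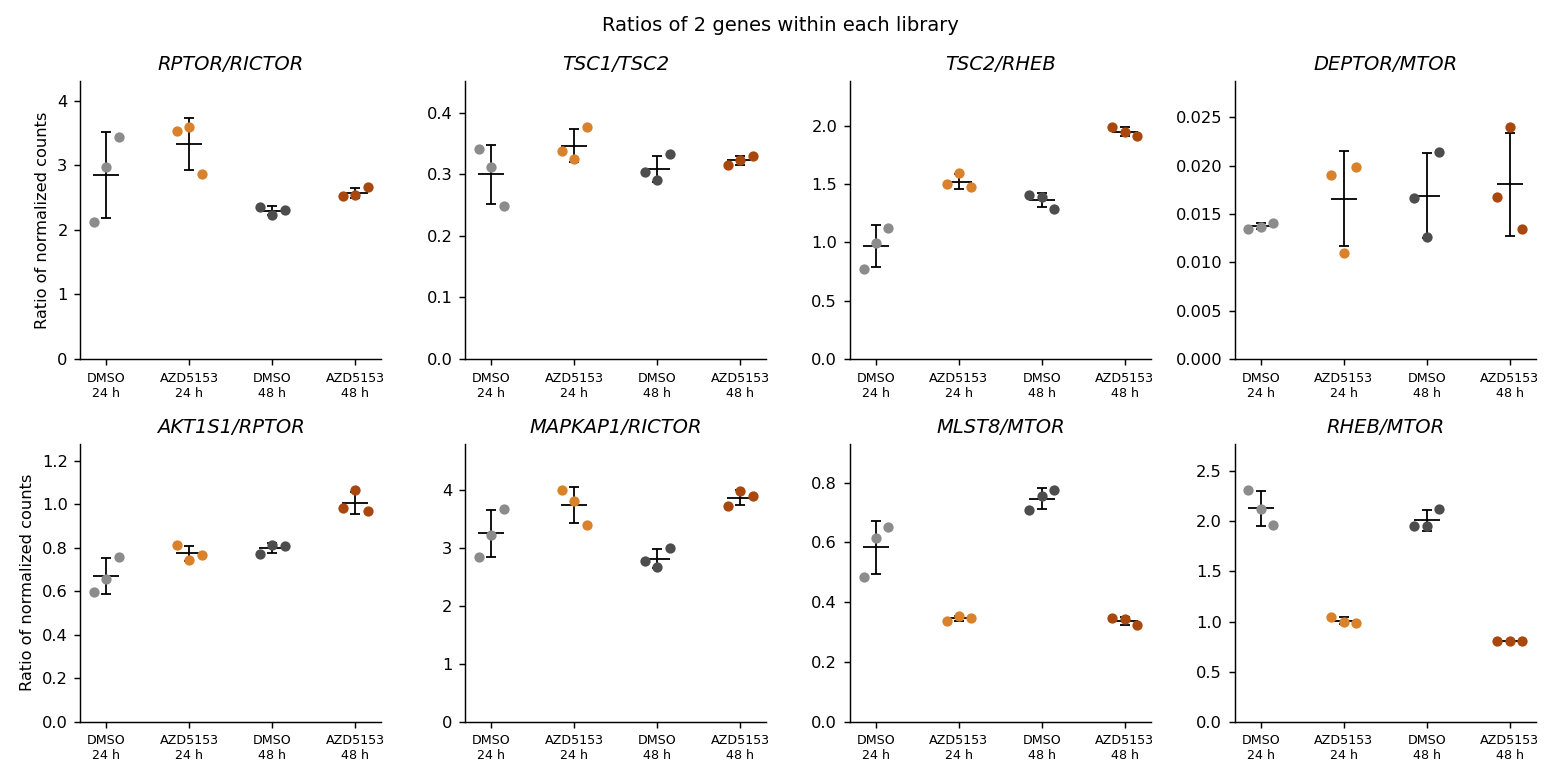
Ratios of normalized counts of 2 genes within each library (axes from 0), with points for libraries and bars for the mean and SD of 3. RHEB/MTOR and MLST8/MTOR are lower and TSC2/RHEB higher in every AZD5153 library than in the DMSO libraries of the same time, while DEPTOR/MTOR overlaps.

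For each of the 10 genes, the other tested gene with the highest Pearson correlation of log2 values over the 12 libraries was identified. For *MTOR* this was *RHOB*, which encodes a small GTPase of endosomes (r of 0.997), and *RHOB* changed by 1.93 at 24 hours and 3.09 at 48 hours. For *TSC1* it was *LUC7L3*, a splicing factor (0.987, with 0.70 and 0.49), for *RHEB* *DNAJC8*, a splicing-associated co-chaperone (0.986, with -0.31 and -0.24), and for *TSC2* the kinesin gene *KIFC2* (0.984, with 1.04 and 0.72). For *RICTOR* it was *TENT2*, a cytoplasmic poly(A) polymerase (0.975, with -0.50 and -0.43), and for *DEPTOR* the ubiquitin ligase gene *LNX2* (0.954, with 0.59 and 0.62). *MAPKAP1* was most like *PTGS1*, the cyclooxygenase gene (0.948), which also was called lower at 24 hours (-0.51) and higher at 48 hours (0.35). *AKT1S1* was nearest to *CHST2* (0.969), *RPTOR* to *ATAD3B* (0.959) and *MLST8* to *RGL3* (0.919). The libraries fall into 4 groups and were searched over all genes, so high values arise readily, and these are descriptions without a test.

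Other genes of the pathway were taken from lists by function, and each count is of tested genes, to be read against the shares of all genes given above. Of 5 tested assembly and accessory subunits, 2 rose and 1 fell at 24 hours, and 2 rose at 48 hours. *TBC1D7*, a further subunit of the TSC complex, rose by 0.44 and 0.42 beside *TSC1* and *TSC2*, and *TTI2*, part of the chaperone complex that folds mTOR, rose by 0.42 and 0.77. Of 13 Rag GTPase, Ragulator and folliculin genes, which bring mTORC1 to the lysosome when amino acids are present, 6 rose and 3 fell at 24 hours, and 5 rose and 5 fell at 48 hours. *RRAGA* rose by 0.88 at both times and *RRAGC* by 0.49 and 0.78, while *RRAGD* fell by -0.41 and -0.41 and the Ragulator gene *LAMTOR4* by -0.38 and -0.75.

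Of 12 GATOR and KICSTOR genes, which relay amino acid supply to the Rag GTPases, 4 rose and 2 fell at 24 hours, and 3 rose and 4 fell at 48 hours. The KICSTOR genes *KPTN* (0.98 and 1.42) and *ITFG2* (0.63 and 0.64) rose. *NPRL3*, of the inhibitory GATOR1 complex, fell by -0.40 and -0.57, and *MIOS*, of GATOR2, fell by -0.74 and -0.38. Of 14 tested nutrient, energy and stress sensors, 7 rose and 1 fell at 24 hours, and 7 rose and 2 fell at 48 hours, with a median of 0.41 and 0.35. This was the highest median of the 8 pathway lists at each time.

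The largest rise in any list was in *SESN3*, whose product sestrin 3 inhibits mTORC1 through GATOR2. It had 657, 614 and 476 normalized counts in DMSO and 3646, 3432 and 3800.4 with AZD5153 at 24 hours, and 1004, 949 and 874 against 5409, 5354 and 5606 at 48 hours. No library of a treated group came near the DMSO libraries of its time, with log2 fold changes of 2.65 (SE 0.0936, adjusted p = 1.19e-12 by limma) and 2.53 (adjusted p = 1.89e-12). *CASTOR2*, a paralogue of the arginine sensor *CASTOR1*, rose by 2.19 and 2.28, from 82.3 to 88.3 normalized counts in DMSO to 343 to 427 with AZD5153 at 24 hours. *PRKAG2*, a regulatory subunit of the energy sensor AMPK, fell by -0.85 and -0.60.

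Of 14 tested PI3K and AKT genes, 8 rose and 5 fell at 24 hours, and 6 rose and 5 fell at 48 hours. *PIK3R3*, a regulatory subunit of PI3K, rose by 1.54 and 2.25. The insulin receptor substrates moved apart, with *IRS1* at -1.61 and -1.88 and *IRS2* at 1.10 and 0.74. The list thus held large changes in both directions, and its median was 0.30 at 24 hours and 0.060 at 48 hours.

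Of 10 tested genes of translation outputs, 4 rose and 3 fell at 24 hours, and 6 rose and 2 fell at 48 hours. *EIF4EBP2*, a translation repressor that mTORC1 inactivates, rose by 1.00 and 1.04, and the S6 kinase gene *RPS6KB2* by 0.63 and 0.56. *LARP1*, which binds ribosomal protein mRNAs, fell by -0.49 and -0.47, and the initiation factor gene *EIF4B* by -0.33 and -0.31. Of 7 autophagy, lysosome and lipid genes, none rose and 4 fell at 24 hours, and 2 rose and 2 fell at 48 hours. *TFEB*, the transcription factor of lysosomal genes that mTORC1 keeps in the cytoplasm, fell by -1.83 and -1.74 at 12.1 to 130 normalized counts, and *SREBF1*, a transcription factor of lipid synthesis, by -1.16 and -0.84.

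Of 4 mTORC2 substrate and feedback genes, 1 rose and 2 fell at 24 hours, and 2 rose and 2 fell at 48 hours. *NDRG1*, a phosphorylation target of SGK1 and itself a stress-response gene, rose by 1.62 and 1.01, while the kinase gene *SGK1* fell by -1.06 and -0.62 and the adaptor gene *GRB10*, an mTORC1 substrate, by -0.81 and -0.91. All 6 proliferation genes fell at both times, with medians of -1.78 and -1.14, among them *TOP2A* (-2.77 and -1.33) and *CDK1* (-2.43 and -0.98). The part of a lower share of dividing cells in the values of the 10 genes was not tested. Some markers of the line and of other cell types also differed between the treatments. Among the glioma markers, group means of *CD44* were 6712 and 4647 normalized counts in DMSO and 7531 and 6725 with AZD5153 at 24 and 48 hours, and those of *VIM* were 22869 and 15327 in DMSO and 18551 and 15450 with AZD5153. *S100B* had 57.1 and 77.9 in DMSO and 60.4 and 62.0 with AZD5153, and *GFAP* had 41.9 and 37.8 in DMSO and 28.9 and 31.5 with AZD5153. For *VIM*, *S100B* and *GFAP* the libraries of the treatments overlapped at both times. The first DMSO library at 24 hours had 28352 for *VIM*, against 20900 and 19355 in its replicates. *NES* had group means of 2050 and 1993 normalized counts in DMSO and 758 and 544 with AZD5153 at 24 and 48 hours, and *SOX2* had 203 and 236 in DMSO and 134 and 192 with AZD5153. The summed endothelial markers, of which *CDH5* was listed at 0, went from 324 to 379 normalized counts in DMSO to 55.1 to 67.0 with AZD5153 at 24 hours, and from 596 to 636 to 50.0 to 62.9 at 48 hours. The summed myeloid markers, with 3 of 5 below a mean of 10, went from 183 to 228 to 42.8 to 53.6 at 24 hours and from 194 to 226 to 34.6 to 57.6 at 48 hours. The lower sum was that of *CSF1R*, with group means of 189 and 197 in DMSO and 27.9 and 34.9 with AZD5153, while *CD14* had 12.0 and 12.9 in DMSO and 16.9 and 12.8 with AZD5153. The summed neuronal markers overlapped between treatments, at 702 to 837 in DMSO and 745 to 857 with AZD5153 at 24 hours and at 701 to 884 and 798 to 922 at 48 hours. Most of that sum was *SYT1*, while *SNAP25* had group means of 33.3 and 51.9 in DMSO and 11.5 and 19.7 with AZD5153. No epithelial marker reached a mean of 10 over the 12 libraries, although *EPCAM* had group means of 13.3 and 15.6 in DMSO and 3.89 and 2.70 with AZD5153. *CDH1* was above 0 in 1 library, the second with AZD5153 at 48 hours (44.5 normalized counts). The part of these markers in the values of the 10 genes was not tested.

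**Figure D5:**
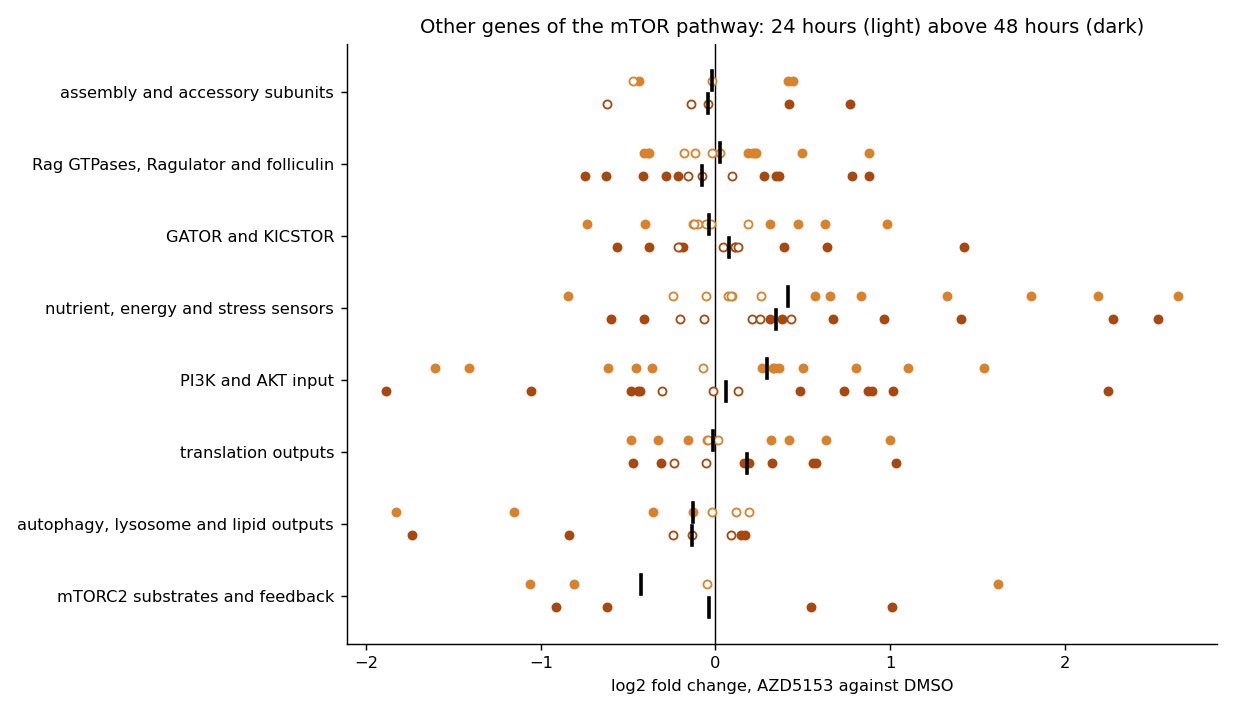
Log2 fold change of AZD5153 against DMSO for the tested genes of the 8 pathway lists, 1 point a gene, at 24 hours (light, upper row) and 48 hours (dark, lower row), filled where the adjusted p was under 0.05, with a black bar at the median. The sensor list reaches furthest right with *SESN3* (2.65) and *CASTOR2* (2.19), and the lists hold genes on both sides of 0.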

How the data were processed

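RNA-Seq libraries of SF8628 cells were grouped by their labels. Per the study's methods, RNA was sequenced with 150 bp paired-end reads, aligned to hg38 with STAR, counted with HTSeq-count and tested with DESeq2. Versions, annotation and strand setting are not given in the sources used here. The deposited values are a signal, namely gene counts that the authors divided by 1 DESeq2 size factor per library. All values (100%) were whole multiples of 1 step within 0.01, so reads were recovered. The deposited table also holds the authors' own log2 fold changes, standard errors, statistics, p-values and adjusted p-values from DESeq2, which were not used. Log2 of value plus 1 was fitted with limma 3.58.1 (R 4.3.3) over the 4 groups, for 15599 genes with a mean of at least 10, with Benjamini-Hochberg adjustment. edgeR 4.0.16 and DESeq2 1.42.0 on recovered reads, other scalings, filters, pseudocounts, a replicate block and leaving out each library were alternatives, and the code was tested on simulated data. The members and lists were chosen with earlier results of these data known. Named were all members, the most similar gene of each, and up to 2 rises and 2 falls per list among genes called at both times with separated libraries, of which 1 is not reported here. Gene models came from GENCODE 44, promoters from RefSeq.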

Additional observations from a re-analysis of the deposited data

Results flagged for a closer look

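The AZD5153 effect on *MTOR* was larger at 48 than at 24 hours, by 0.34 on the log2 scale (adjusted p = 0.00125 by limma for the difference of the effects, range over the alternatives 3.55e-05 to 0.0143). It was higher with AZD5153 in 3 of 3 libraries at each time.

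The AZD5153 effect on *MAPKAP1* differed by 0.26 between the times (adjusted p = 0.00591 by limma, range 0.00122 to 0.0966), with 3 of 3 libraries lower at 24 hours and 3 of 3 higher at 48 hours. The direction at 48 hours depended on the scaling, with -0.044 for equal totals and -0.028 for quantile normalization.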

How the results depend on the processing

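The AZD5153 effects on *MTOR*, *RICTOR*, *DEPTOR*, *TSC1* and *RHEB* kept their direction and call at 24 and 48 hours in each alternative that tested them. So did *MAPKAP1* and *TSC2* at 24 hours. *DEPTOR* was not tested with a minimum mean of 100. The depth of *DEPTOR*, 27 to 90 reads, limits the size of its change. Libraries of the same replicate number shared no clear deviation: the same-number correlations of deviations ran from -0.15 to 0.036 over 18 pairs. Deviations at 24 hours also followed GC content, and a pair of unlike numbers reached 0.15. The check thus cannot show that the libraries were unpaired. With the replicate block, *RPTOR* over both times (-0.13) and *MTOR* in AZD5153 with time (0.14) lost their calls, leaving 0 members called higher in the latter (2313 of all genes). Causes of the changes below were not tested.

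The counts of all genes are of 15599 unless stated. With equal totals, 48 hours gave 3 members higher and 4 lower (all genes 3894 and 6511, against 5159 and 5294), both times 5 lower (all genes 7077, against 5934), and the difference between times 1 lower, *TSC1* (all genes 1891, against 1575). Signs changed for *AKT1S1* (-0.0065 at 24 hours, -0.0089 at 48 hours, -0.0077 over both, -0.0023 between times, 0.00039 in DMSO with time), *MAPKAP1* at 48 hours (-0.044) and *RICTOR* (-0.039 between times, 0.023 in DMSO with time). With 7 stable genes, AZD5153 with time gave 2 higher and 1 lower (all genes 3406 and 1372, against 2472 and 2155). Signs changed between times for *RPTOR* (0.0019), *MLST8* (0.019) and *TSC2* (0.021), and in AZD5153 with time for *RICTOR* (0.064) and *AKT1S1* (0.078).

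With quantile normalization, 48 hours gave 3 members higher (all genes 5800), the difference between times 1 higher and 1 lower, *TSC1* (all genes 1761 and 1601), and AZD5153 with time 0 higher (all genes 2226). Signs changed for *MAPKAP1* at 48 hours (-0.028), for *RICTOR* (-0.065), *AKT1S1* (-0.043) and *RHEB* (-0.014) between times, and in DMSO with time for *RICTOR* (0.040), *AKT1S1* (0.027) and *DEPTOR* (-0.16). AZD5153 with time gave 0 higher with no minimum mean (all genes 2157 of 33173), without a trend in limma (2211) and with edgeR (2296), which also turned *RICTOR* between times (-0.021), and 2 higher with only the groups compared (3177). DMSO with time gave 1 higher without a trend (all genes 2308) or with only the groups compared (2150). With a pseudocount of 10 the DEPTOR to MTOR ratio turned to -0.027.

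Leaving out 1 library gave 3 to 5 members lower at 24 hours (all genes 5092 to 5494), 1 to 3 higher in DMSO with time (1935 to 2831), and 0 to 2 higher (1918 to 3244) and 1 to 2 lower (1703 to 2856) in AZD5153 with time. TSC1 to TSC2 ran from 0.074 to 0.19 and RPTOR to RICTOR from 0.11 to 0.28. Values that crossed 0 were *MLST8* (-0.17 to 0.070) and *AKT1S1* (-0.080 to 0.27) at 24 hours and *MAPKAP1* over both times (-0.019 to 0.0080). Between times these were *RPTOR* (-0.14 to 0.044), *RICTOR* (-0.072 to 0.096), *MLST8* (-0.16 to 0.075), *AKT1S1* (-0.11 to 0.24), *DEPTOR* (-0.053 to 0.40) and *TSC2* (-0.14 to 0.039). With time in DMSO these were *RICTOR* (-0.12 to 0.053), *AKT1S1* (-0.25 to 0.10) and *DEPTOR* (-0.11 to 0.24), and with time in AZD5153 *RICTOR* (-0.077 to 0.051) and *AKT1S1* (-0.045 to 0.018).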
